A study of Danio rerio with 1324 samples.

Results

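Beta-cells keep their identity through a set of transcription factors, many of which are switched on as endocrine cells form and stay on afterwards. The 10 zebrafish genes described here are pdx1, mnx1, nkx6.1, nkx2.2a, neurod1, isl1, pax6b, rfx6, insm1a and insm1b. They were chosen by symbol, with earlier results of these data known, and all 10 were found among the 31916 genes of the deposited tables. Homeodomain factors such as Pdx1, Nkx2.2 and Pax6 bind regulatory DNA of hormone and secretory genes, and Neurod1 and Isl1 are known to act with Pdx1 on the insulin gene. Rfx6 and the Insm1 factors are known from the period in which endocrine cells arise. Loss of some factors of the whole set in mouse or zebrafish shifts beta-cells towards other endocrine types.

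The cells came from islets of Tg(ins:BB1.0L) zebrafish, the line given as Tg(ins:BB1.0L; cryaa:RFP) in the study's methods, in which the ins promoter drives a red fluorescent protein, so that sorting by colour selects cells with an active ins gene. Single cells were sequenced from full-length cDNA, and each value is in TPM, a read number set relative to the length of the gene and to the total of the cell, so that levels can be compared between genes. The tables held 1014 cells in 15 pools of cells from several fish each, and the pool was taken as the sample. Of these, 13 pools with 936 cells came from normally fed fish, namely 3 pools of 1 to 1.5 months post-fertilization (mpf), made of 1 mpf, a new batch of 1 mpf and 1.5 mpf cells, 5 pools of 3 to 6 mpf (3 mpf, 3 mpf cells captured on a Fluidigm C1 chip, 4 mpf, a new batch of 4 mpf and 6 mpf), and 5 pools of 9 to 14 mpf (9, 10, 12, a new batch of 13, and 14 mpf). Another 2 pools of 4 mpf came from fish fed 3 times a day and from fish on intermittent feeding. All groups carried the same transgene, and nothing in the labels gives the fish a cell came from, so p-values measure the spread between pools. The study prepared its training ages (1, 3, 4, 6, 10, 12 and 14 mpf) in 4 independent batches. Its 3 mpf and 6 mpf pools each join 2 batches from different days. Pools can thus share a batch or mix batches, and are not fully independent.

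The 3 youngest pools differed from the others in more than the genes described here. A cell had a median of 2078 to 3654 detected genes in the 10 pools of 3 mpf or older, against 3488 to 4957.5 in the 3 pools of 1 to 1.5 mpf. Median reads per cell were 274025.5 to 1162067 in the older pools and 553951.5 to 696968 in the young pools, and ins alone held 56.4% to 77.8% of the TPM of the median older cell against 54.6% to 67.1% in young cells. Reads of ins were found in 100% of the cells. Among markers of other islet cells, the 2 matched alpha-cell genes of 3 had a mean summed level of 5.5 to 11.3 on the log2(TPM + 1) scale in the older pools against 7.9 to 10.5 in the young pools, and the 4 delta-cell genes 0.8 to 11.5 against 9.0 to 9.4. The 8 matched acinar genes of 14 summed to 0.3 to 2.3 against 1.4 to 3.1 on this scale, and up to 6 of them were at 0 in a pool, while the 3 matched duct genes of 6 stayed between 0.0 and 0.4 in all 13 pools. Since several of the 10 factors are shared with alpha- and delta-cells, these levels are given as background, and their part in the results was not tested.

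By mean level over all cells, those without a read included, pdx1 stood first and nkx6.1 last. The mean of the pools' mean log2(TPM + 1) was 9.67 ± 1.00 for pdx1 (SD, n = 13 pools), which put it at rank 49 of the 11357 genes with a read in at least 5% of cells. It was followed by neurod1 at 6.52 ± 1.03, the activator of endocrine differentiation. The LIM-homeodomain gene isl1 was at 5.37 ± 0.85 and the paired-box gene pax6b at 5.32 ± 0.87. These neighbours did not differ beyond their spread, with isl1 above pax6b in 9 of 13 pools. Next came mnx1, a factor that zebrafish need to form beta- rather than alpha-cells, at 4.70 ± 0.90. It was above nkx2.2a, at 3.79 ± 0.92, in 11 of 13 pools. The genes nkx2.2a, insm1a (3.65 ± 0.83) and insm1b (3.46 ± 1.11) were not separated, each lying above the next in 8 of 13 pools. At the low end rfx6 was at 1.56 ± 0.68 and nkx6.1 at 0.57 ± 0.39, with rfx6 above nkx6.1 in 13 of 13 pools.

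**Figure D1:**
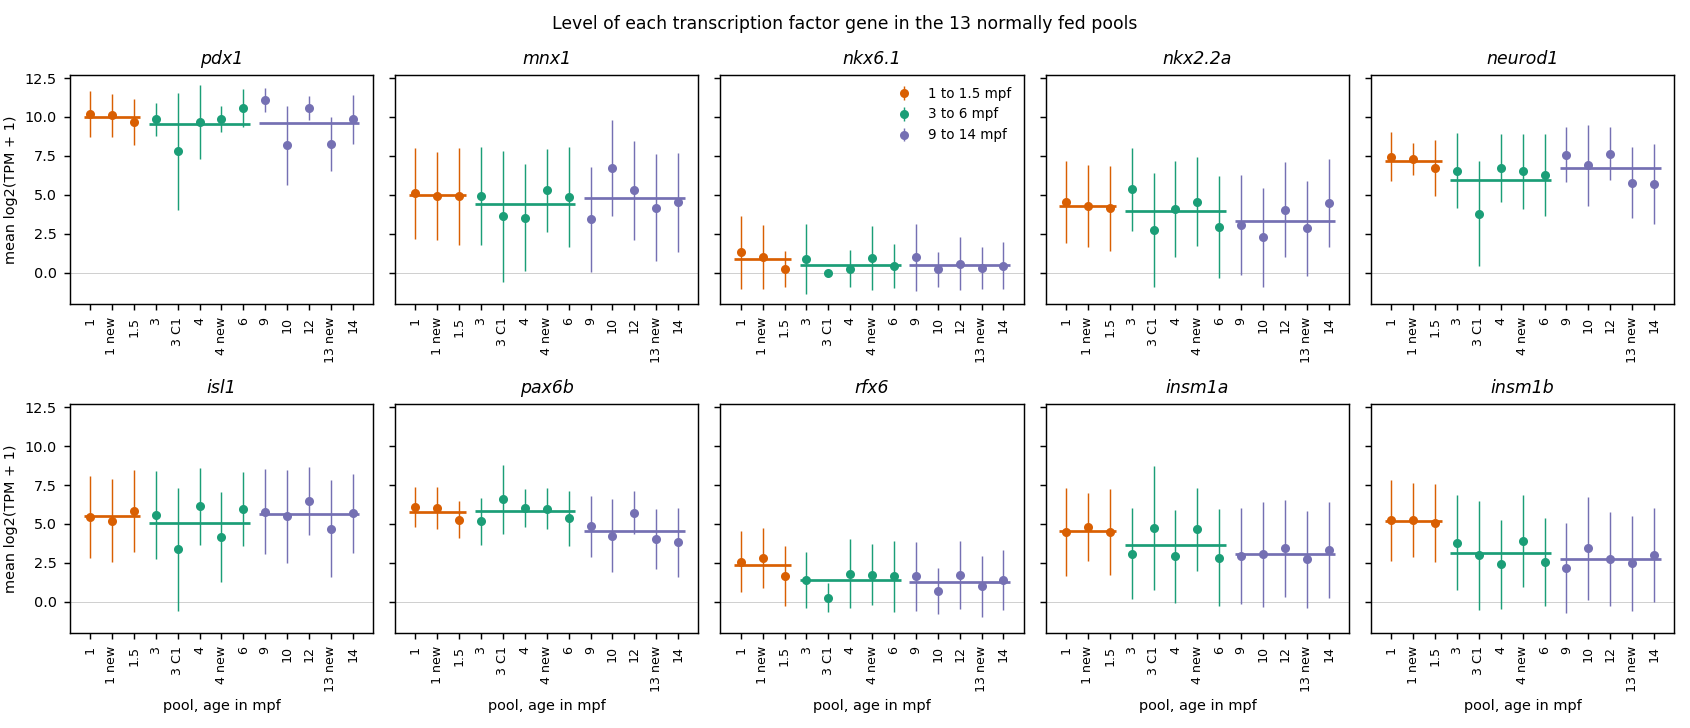
Mean log2(TPM + 1) over cells (y axis) of each of the 10 genes in the 13 normally fed pools (x axis, age in mpf). Bars are the SD between cells and horizontal lines the mean of the pools of an age class. The insm1b pools of 3 mpf or older lie between 2.16 and 3.92, all below the 3 pools of 1 to 1.5 mpf, while the pools of the other 9 genes overlap.

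A comparison of the 10 pools of 3 mpf or older with the 3 pools of 1 to 1.5 mpf asks whether these factors differ between those ages. The study calls 1 mpf Juvenile and places 1.5 mpf between that stage and the next, Adolescent. Of the 10 genes, 2 fell, insm1b and rfx6, and none rose (limma on pool means, adjusted p under 0.05). Over all 11357 genes tested, 41.3% were called, 41.1% lower and 0.194% higher in the older pools, and the median difference was -0.44 on the log2(TPM + 1) scale. The share called over all genes was 15.08% without the new 1 mpf batch and 17.1% without the 1 mpf pool. The median difference of the 10 factors was -0.64, with all 10 differences below 0, and whether the factors differ from other genes was not tested.

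The zinc-finger repressor gene insm1b, known from mouse Insm1 as a regulator of endocrine differentiation, had the largest difference of the 10 genes. Its mean log2(TPM + 1) was 3.803, 2.99, 2.39, 3.92 and 2.55 in the 3 mpf, 3 mpf C1, 4 mpf, new 4 mpf and 6 mpf pools, and 2.16, 3.43, 2.76, 2.47 and 3.00 in the 9, 10, 12, new 13 and 14 mpf pools. It was 5.23, 5.23 and 5.05 in the 1 mpf, new 1 mpf and 1.5 mpf pools. By age class it was 5.17 ± 0.11 at 1 to 1.5 mpf, 3.13 ± 0.70 at 3 to 6 mpf and 2.76 ± 0.49 at 9 to 14 mpf (SD, n = 3, 5 and 5 pools). All 10 older pools lay below all 3 young pools, a pattern found in 1 of the 10 factors and in 16% of all genes tested, while none of the factors and 0.0881% of all genes had all older pools above. The difference was -2.22 ± 0.47 (SE; limma adjusted p = 0.00187). It stayed between -2.32 and -2.13 with each pool left out in turn, and was -2.39 with TPM rescaled without ins.

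The lower insm1b level went with fewer cells that had any read of the gene. The share of cells with a read was 38.4% to 68.8% in the older pools, against 86.5% to 90% in the young pools. With cells thinned to 100000 reads the shares were 36.05% to 68.9% against 79.4% to 83.3%. With 20000 reads outside ins they were 30.8% to 64.4% against 76.1% to 80%. Cells with fewer reads were left out of these shares. At 100000 reads, 68 of 74 cells of the 1.5 mpf pool and 83 of 90 cells of the 6 mpf pool were kept. The groups did not overlap at either number of reads. How many of all genes do so was computed only at 100000 reads. Shares of cells with a read in 100000 that were lower in all older pools occurred in 2 of the 10 factors, insm1b and rfx6, and in 22.2% of all genes tested, and shares that were higher in all older pools in none of the factors and in 0.0881% of all genes. Among the cells with a read, by contrast, the median level of insm1b was 42.2 to 81.1 TPM in the older pools and 58.8 to 81.8 TPM in the young pools, which overlapped. The pool was also summarised by the log2 of its mean TPM, which gives more weight to cells with a high TPM of the gene. The insm1b difference was then -0.96 and was not called (limma adjusted p = 0.221), while 25 of 11357 genes were called in all. Within pools of 30 or more cells, insm1b had a median Spearman rho of 0.17 with the number of genes detected in a cell (range -0.04 to 0.54 over 12 pools), and the part of this relation in the age difference was not tested.

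Its paralogue insm1a, a zinc-finger factor of the same kind, had its lowest class mean at 9 to 14 mpf. Its mean log2(TPM + 1) was 3.09, 4.73, 2.91, 4.65 and 2.83 in the 3 mpf, 3 mpf C1, 4 mpf, new 4 mpf and 6 mpf pools, and 2.94, 3.05, 3.42, 2.73 and 3.32 in the 9, 10, 12, new 13 and 14 mpf pools. In the 1 mpf, new 1 mpf and 1.5 mpf pools it was 4.47, 4.78 and 4.46. The C1 pool and the new 4 mpf batch reached the young level, the other 8 older pools did not. The difference of -1.20 ± 0.51 (SE) did not pass the threshold (limma adjusted p = 0.061), and did without the C1 pool (-1.34, limma adjusted p = 0.0177) and without the new 4 mpf batch (-1.33, limma adjusted p = 0.0319). Over all settings tried, its adjusted p in limma ran from 0.00169, in the tables whose columns carry the age, to 0.749, with the log2 of the pool's mean TPM.

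With all reads, the share of cells with both insm1 genes read was lower in all 10 older pools than in the 3 young pools. Both were read in 22%, 27.5% and 58.7% of the cells of the lowest, median and highest older pool, against 70.1%, 86.7% and 71.6% in the 1 mpf, new 1 mpf and 1.5 mpf pools. Cells with neither made up 10.9% to 36.05% of the older pools and 3.33% to 8.11% of the young pools. With 20000 reads outside ins per cell, both were read in 12.2% to 48.9% of the cells of the older pools and in 54.02% to 63.3% of the cells of the young pools. Of the 45 pairs of the 10 factors, 16 had a lower share of cells with both in all older pools with all reads. At 20000 reads outside ins it was 5, the insm1 pair and 4 others that also hold insm1b. Alone, insm1b was already lower in all older pools at that number of reads. Pairs of other genes were not counted. Among single genes, 22.2% had a lower share in all older pools at 100000 reads. This was not computed with all reads or with 20000 reads outside ins. With all reads, insm1a was read in 46%, insm1b in 50% and both in 22% of the cells of the new 13 mpf pool. In the new 1 mpf pool these shares were 93.3%, 90% and 86.7%. Whether both were read together more often than the single shares give was not tested. The levels of insm1a and insm1b had a Pearson r of 0.75 over the 13 pool means, which share depth and batch, and a median Spearman rho of 0.06 over the cells of 12 pools.

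**Figure D2:**
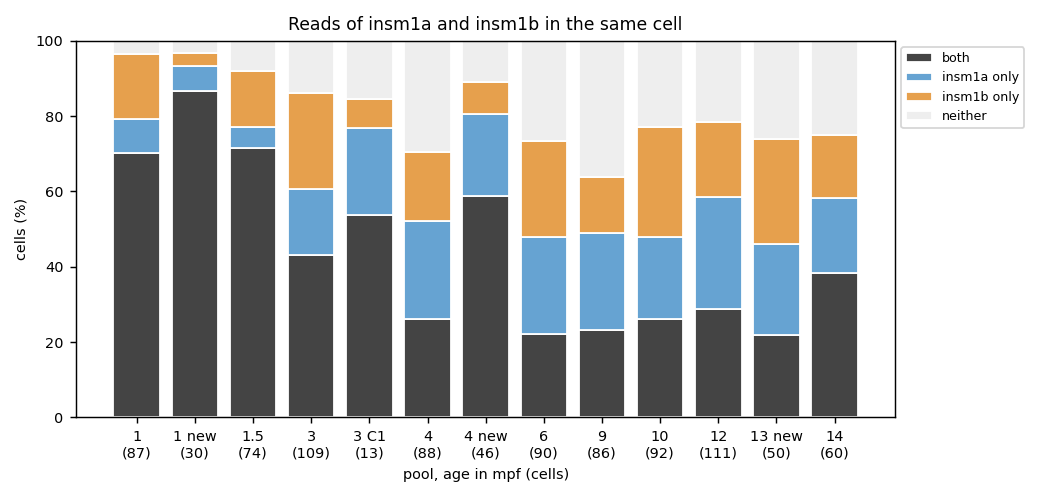
Share of cells (y axis, %) with a read of both insm1a and insm1b, of only the first, of only the second, or of neither, in each normally fed pool (x axis, age in mpf with the number of cells). The share with both is 22% to 58.7% in the 10 pools of 3 mpf or older and 70.1% to 86.7% in the 3 pools of 1 to 1.5 mpf.

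The winged-helix gene rfx6, which acts early in the endocrine lineage of mouse and zebrafish, fell too, at a low level. In the 3 mpf, 3 mpf C1, 4 mpf, new 4 mpf and 6 mpf pools its mean log2(TPM + 1) was 1.40, 0.26, 1.79, 1.74 and 1.63, and in the 9, 10, 12, new 13 and 14 mpf pools it was 1.64, 0.67, 1.73, 0.99 and 1.38. The young pools had 2.57 (1 mpf), 2.83 (new 1 mpf) and 1.67 (1.5 mpf). The 2 pools of 1 mpf were above all others, while the 1.5 mpf pool lay within the range of the older pools. The difference was -1.03 ± 0.36 (SE; limma adjusted p = 0.0283), and it was no longer called without the 1 mpf pool (-0.92, limma adjusted p = 0.14) or without its new batch (-0.80, limma adjusted p = 0.192), nor with TPM rescaled without ins (-1.20, limma adjusted p = 0.0648), with the log2 of the pool's mean TPM (-0.71, limma adjusted p = 0.536) or without the filter on rarely read genes (limma adjusted p = 0.053).

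The share of cells with a read of rfx6 was 7.69% to 52.2% in the older pools and 56.8% to 80% in the young pools, which did not overlap. How many of all genes do so with all reads was not computed. At 100000 reads, 22.2% of all genes tested had a lower share in all older pools. At 100000 reads per cell it was 0% to 42.2% against 48.5% to 76.7%, where 0% stands for 0 of 13 C1 cells and allows a share of up to 23.1% (3 counts of 13). At 20000 reads outside ins the shares were 0% to 35.6% in the older pools and 29.6% to 40% in the young pools, and overlapped. The difference between the mean shares shrank with it, to -12.1 percentage points, against -33.1 with all reads. A median cell with a read had 5.64 to 25.4 TPM in the older pools and 6.497 to 10.6 TPM in the young pools.

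**Figure D3:**
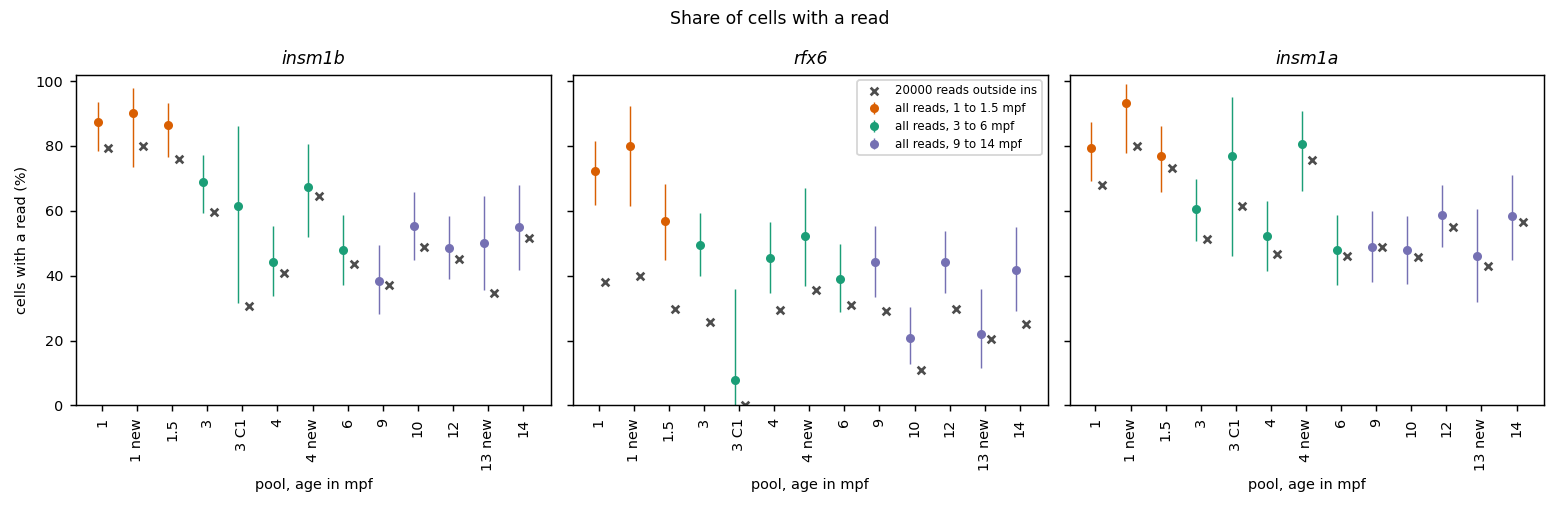
Share of cells with a read (y axis, %) of insm1b, rfx6 and insm1a in the 13 normally fed pools (x axis, age in mpf). Points are shares from all reads with exact 95% Clopper-Pearson intervals, coloured by age class. Crosses are shares after cells were thinned to 20000 reads outside ins, with cells of fewer reads left out. The insm1b crosses of the older pools end at 64.4%, below the lowest young cross at 76.1%, and those of rfx6 overlap. The share of all genes with such a gap was not computed at this number of reads.

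The remaining 7 genes gave no call between the older and the young pools, pax6b included (-0.62 ± 0.54, SE; limma adjusted p = 0.365). For pdx1, the regulator of pancreas formation and activator of ins, the mean log2(TPM + 1) was 9.86, 7.78, 9.69, 9.86 and 10.56 in the 3 mpf, 3 mpf C1, 4 mpf, new 4 mpf and 6 mpf pools, and 11.08, 8.17, 10.57, 8.26 and 9.86 in the 9, 10, 12, new 13 and 14 mpf pools. The young pools lay at 10.19 (1 mpf), 10.10 (new 1 mpf) and 9.69 (1.5 mpf). The pools of C1, 10 mpf and 13 mpf stood below the rest, and 9 mpf above. The difference was -0.42 ± 0.54 (SE; limma adjusted p = 0.538), and it was 0.02 with TPM rescaled without ins. A read of pdx1 was found in 84.6% to 100% of the cells of the older pools and in 98.6% to 100% of the cells of the young pools, the highest shares of the set beside pax6b.

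Among the other homeodomain genes, mnx1 ran from 3.42 in the 9 mpf pool to 6.72 in the 10 mpf pool, which enclosed the young pools at 5.08 (1 mpf), 4.91 (new 1 mpf) and 4.89 (1.5 mpf). The 10 mpf pool thus held the highest mnx1 level and nearly the lowest pdx1 level of the 13. For nkx2.2a, a repressor of other endocrine fates, the older pools had 2.26 at the lowest, 3.56 at the median and 5.34 at the highest, against 4.52, 4.27 and 4.12 in the 1 mpf, new 1 mpf and 1.5 mpf pools. The share of cells with a read of nkx2.2a was 34.8% to 86.2% in the older pools and 74.3% to 83.9% in the young pools, while the median level among cells with a read was 62.3 to 91.1 TPM in the older pools and 50.6 to 53.5 TPM in the young pools. That median leaves out the cells without a read, and how many of all genes have the same pattern was not computed. The nkx2.2a difference over all cells was -0.67 ± 0.59 (SE; limma adjusted p = 0.367), and that of mnx1 was -0.33 ± 0.63 (SE; limma adjusted p = 0.689).

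The LIM-homeodomain gene isl1 had 3.37, 5.63 and 6.48 in the lowest, median and highest older pool, against 5.43, 5.20 and 5.83 in the 1 mpf, new 1 mpf and 1.5 mpf pools. Its difference of -0.16 ± 0.61 (SE; limma adjusted p = 0.855) was the smallest of the 10 and changed sign without the C1 pool (0.05) and without the 1.5 mpf pool (0.01). Levels of neurod1 were 3.79, 6.52 and 7.63 in the lowest, median and highest older pool, against 7.45, 7.28 and 6.71 in the young pools in the same order of ages, a difference of -0.81 ± 0.62 (SE; limma adjusted p = 0.298). The lowest value of both genes was that of the 13 cells from the C1 chip.

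The NKX6 genes call for a separate word, because in zebrafish nkx6.1 is known from pancreatic progenitor and duct cells and its paralogue nkx6.2 from beta-cells. A read of nkx6.1 was found in 0% to 19.6% of the cells of the older pools, against 24.1%, 20% and 4.05% in the 1 mpf, new 1 mpf and 1.5 mpf pools. In the C1 pool it was found in 0 of 13 cells, which allows a share of up to 23.1% by the same rule. The nkx6.1 difference in level was -0.34 ± 0.23 (SE; limma adjusted p = 0.234). By comparison nkx6.2, which is not among the 10 genes, was read in 9.78% to 82.6% of the cells of the older pools and 73.3% to 77.03% of the cells of the young pools. It was lowest at 10 mpf, with a mean log2(TPM + 1) of 0.53, against 2.38 to 5.10 in the other 9 older pools and 4.00 to 4.32 in the young pools. Its difference was not called (-1.004 ± 0.58, SE; limma adjusted p = 0.167). Cells with a read of nkx6.1 but not of nkx6.2 made up 0% to 10.5% of any normally fed pool.

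A second comparison was of the 5 pools of 9 to 14 mpf with the 5 pools of 3 to 6 mpf. The study calls 3, 4 and 6 mpf Adolescent and 10, 12 and 14 mpf Adult, and places 9 mpf between these stages. In the limma fit over 13 pools none of the 10 genes was called, nor was any of the 11357 genes tested (0% called), although 857 genes had an unadjusted p under 0.05. The widest difference among the 10 genes was that of pax6b, an endocrine factor of all islet cell types, at -1.29 ± 0.52 (SE; limma adjusted p = 0.653). Levels of pax6b were 4.85, 4.26, 5.73, 4.03 and 3.82 in the 9, 10, 12, new 13 and 14 mpf pools, against 5.18, 6.57, 6.01, 5.98 and 5.37 in the 3 mpf, 3 mpf C1, 4 mpf, new 4 mpf and 6 mpf pools. The 12 mpf pool lay within the 3 to 6 mpf range and the other 4 below it. Levels that did not overlap between the age classes were found in none of the 10 genes, against 0.361% of all genes higher and 1.29% lower at 9 to 14 mpf. The same held for shares of cells with a read in 100000, with none of the 10 genes against 0.247% of all genes higher and 1.19% lower. Of the remaining genes, neurod1 (0.76 ± 0.59, SE), isl1 (0.59 ± 0.58, SE) and mnx1 (0.38 ± 0.60, SE) had positive differences, and pdx1 differed by 0.04 ± 0.51 (SE). Negative differences were those of nkx2.2a (-0.60 ± 0.57, SE), insm1a (-0.55 ± 0.49, SE), insm1b (-0.37 ± 0.45, SE) and rfx6 (-0.09 ± 0.35, SE).

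**Figure D4:**
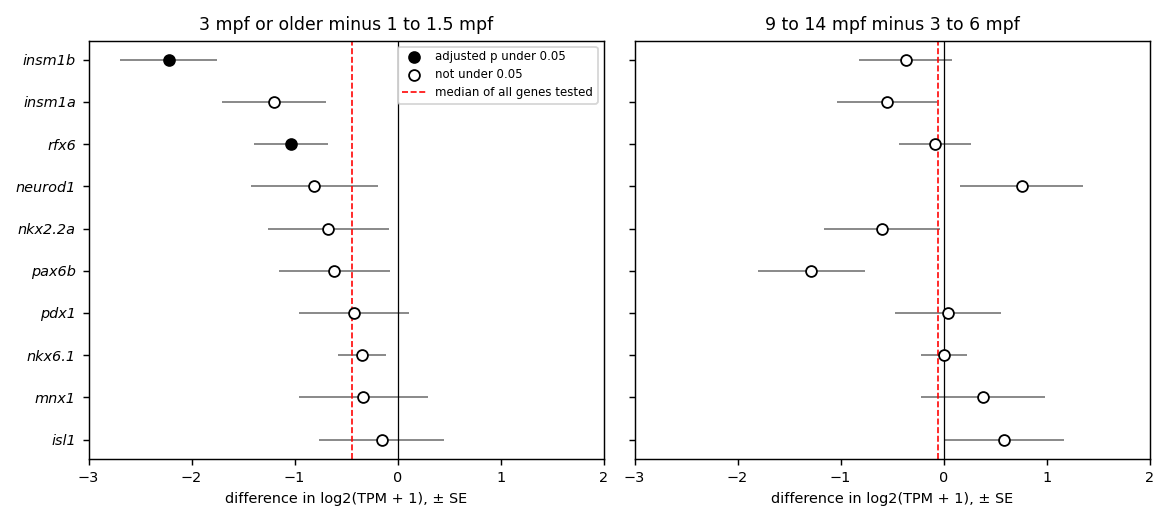
Difference in mean log2(TPM + 1), with its SE, of the 10 genes (rows) in 2 comparisons of the limma fit over 13 pools. Filled points have an adjusted p under 0.05, and the dashed line is the median of the 11357 genes tested. The 2 filled points are insm1b at -2.22 and rfx6 at -1.03, both in the comparison of 3 mpf or older with 1 to 1.5 mpf.

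Read counts were compared among the training pools, the 7 pools whose counts were deposited. Between the 10, 12 and 14 mpf pools and the 3, 4 and 6 mpf pools, edgeR's quasi-likelihood test called 0 of 14128 genes (0%; 509 had an unadjusted p under 0.05, and DESeq2 called 38), so none of the 10 genes. The widest difference of a member was that of mnx1, at 0.81 ± 0.42 (SE, on the log2 scale; edgeR adjusted p = 1.00), then pax6b at -0.44 ± 0.34. For insm1b the summed counts gave 0.38 ± 0.40, where the mean of log values between 9 to 14 and 3 to 6 mpf gave -0.37 ± 0.45, neither of them called. Along log2 age over all 7 training pools, edgeR called 0 of 16183 genes (0%; 687 had an unadjusted p under 0.05, and DESeq2 called 1.04%). There the slopes of the 10 genes ran from -0.29 ± 0.22 for nkx6.1 to 0.33 ± 0.17 for mnx1 (SE, log2 change per doubling of age), and insm1b had -0.07 ± 0.14. Counts summed over a pool weight cells by their reads. The SE given with an edgeR value was derived from the test, as the size of the estimate divided by the square root of its F statistic.

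Cells of different ages from 1 collection date or plate were compared next, with 1 pool per age and so no test. On 1 date, 12 mpf cells against 1 mpf cells gave insm1b 2.76 against 5.23, a difference of -2.47, insm1a 3.42 against 4.47 and rfx6 1.73 against 2.57. On a shared plate, 13 mpf cells against 1 mpf cells gave insm1b 2.47 against 5.23, a difference of -2.76, insm1a 2.73 against 4.78 and rfx6 0.99 against 2.83. Lower in the older cells of both settings were also nkx6.1 (-0.72 on the date, -0.69 on the plate), nkx2.2a (-0.47 and -1.44) and pax6b (-0.36 and -1.99), so 6 of the 10 genes, against 79.7% of all genes tested. With TPM rescaled without ins, pax6b turned to 0.30 on the date and was -1.61 on the plate. Then nkx2.2a was -0.15 and -1.41, and nkx6.1, rfx6, insm1a and insm1b stayed lower in both settings. The share of all genes was not computed with this rescaling. The directions parted for pdx1 (0.38 on the date, -1.84 on the plate), neurod1 (0.18 and -1.50), isl1 (1.05 and -0.52) and mnx1 (0.20 and -0.76). On the date 6 of the 10 genes were lower in the 12 mpf cells, against 85.4% of all genes, and on the plate all 10 were lower in the 13 mpf cells, against 90.1% of all genes. A median cell of the plate had 2384 detected genes at 13 mpf against 4957.5 at 1 mpf, and the part of this in the differences was not tested.

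Batches of the same age differed too. At 3 mpf, the 35 cells of columns marked New had a mean log2(TPM + 1) for nkx2.2a of 4.16 against 5.90 in the 74 cells of the first batch, and for insm1a of 2.01 against 3.60. At 6 mpf the differences had the other sign, with nkx2.2a at 3.79 in the 51 New cells against 1.84 in the 39 first cells, and insm1a at 3.92 against 1.40. Shares of cells with a read of rfx6 were likewise 25.7% in the New batch against 60.8% in the first at 3 mpf, and 50.98% against 23.1% at 6 mpf. For insm1b the level was 4.68 in New cells against 3.39 in first cells at 3 mpf, a difference of 1.29, and 0.34 higher in New cells at 6 mpf. Its share of cells with a read was 68.6% in New and 68.9% in first cells at 3 mpf and 49.02% in New and 46.2% in first cells at 6 mpf. The new batch of 1 mpf differed from the 1 mpf pool by -0.30 to 0.31 in all 10 genes. The new batch of 4 mpf was above the 4 mpf pool by 1.77 in mnx1, 1.73 in insm1a and 1.52 in insm1b, and below it by 1.96 in isl1.

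The C1 pool, 13 cells captured on a chip instead of sorted into plates, stood apart from the 3 mpf pool in most of the set. It was lower by 2.75 for neurod1, 2.59 for nkx2.2a, 2.22 for isl1 and 2.08 for pdx1 on the log2(TPM + 1) scale, and higher for insm1a (4.73 against 3.09) and pax6b (6.57 against 5.18). A read of isl1 was found in 46.2% of its cells and of rfx6 in 7.69%, below all other normally fed pools in both cases. Its median cell had 2078 detected genes, the fewest, and 1162067 reads, the most of the 13 pools.

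Cells of the 2 feeding regimes were collected at 4 mpf, with 1 pool per regime, so the values are a description and the intervals cover counting error only. In fish fed 3 times a day, mnx1 was at 4.02 on the log2(TPM + 1) scale, against 6.103 under intermittent feeding, and pax6b was at 4.47 against 6.04. Lower values under the 3 daily feedings were also those of neurod1 (5.81 against 7.21), rfx6 (1.22 against 2.09), isl1 (5.99 against 6.66) and pdx1 (9.93 against 10.32). The other way round, insm1b (3.08 against 2.42), nkx6.1 (1.29 against 0.69), insm1a (3.46 against 2.94) and nkx2.2a (5.92 against 5.84) were higher in fish fed 3 times a day. A read of mnx1 was found in 57.1% of 35 cells (95% interval 39.4% to 73.7%) in fish fed 3 times a day and in 79.1% of 43 cells (63.96% to 89.96%) under intermittent feeding. Intervals overlapped for insm1b too, with 54.3% (36.6% to 71.2%) against 37.2% (22.98% to 53.3%). With TPM rescaled without ins, the pdx1 difference turned to 0.10, while those of mnx1 (-2.08) and pax6b (-1.28) kept their sign.

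**Figure D5:**
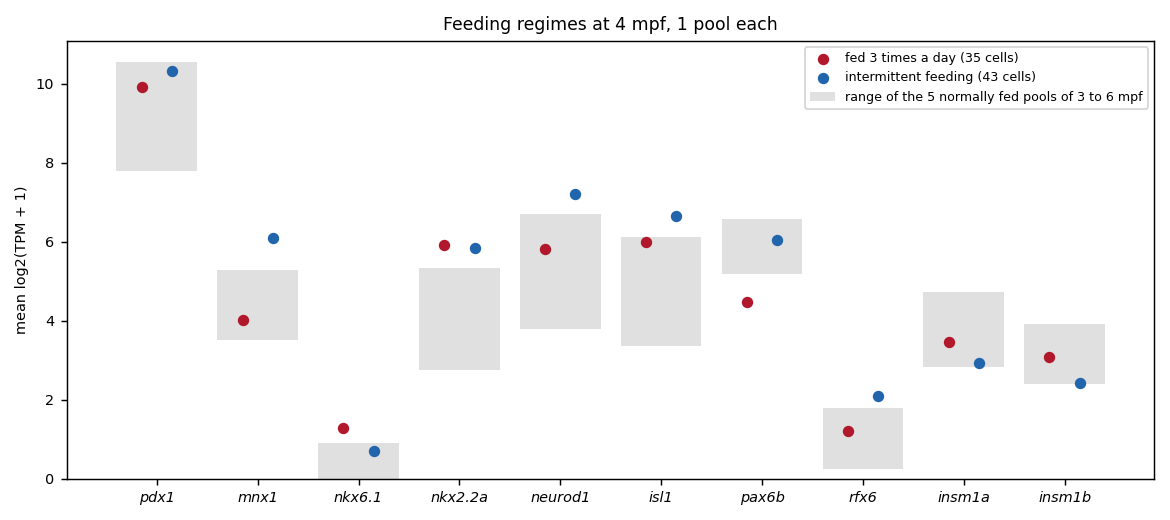
Mean log2(TPM + 1) (y axis) of the 10 genes in the pools of 4 mpf fish fed 3 times a day (left point of each gene, 35 cells) and on intermittent feeding (right point, 43 cells). Grey bars span the 5 normally fed pools of 3 to 6 mpf. The widest gap is that of mnx1, at 4.02 against 6.103, and nkx2.2a lies above the grey bar in both regimes.

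At the level of single cells, the median cell of the normally fed pools had a read of 7 of the 10 genes, and no cell had none. The number ran from 1 to 10, and 16 of 936 cells had 3 or fewer. Leaving out nkx6.1, all other 9 genes were read in 0% to 21.1% of the cells of the older pools and in 32.2%, 40% and 22.97% of the cells of the 1 mpf, new 1 mpf and 1.5 mpf pools. These shares are from all reads. The median cell had 2078 to 3654 detected genes in the older pools against 3488 to 4957.5 in the young pools. Its part in these shares was not tested, and sets of 9 other genes were not counted. The older pools with none were the C1, 10 mpf and 13 mpf pools, and the highest share was that of 3 mpf. Relations between the genes over the cells of a pool were weak. Of the 45 pairs, the median Spearman rho over 12 pools ran from -0.07 (pdx1 with insm1a) to 0.17 (mnx1 with neurod1), and it was above 0 for 35 pairs. With ins, the rho was lowest for neurod1 and pdx1 (median -0.21 each) and below 0 in all 12 pools for pax6b (median -0.18), where all TPM of a cell share 1 sum of which ins holds most.

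Over the 13 pools, the genes whose mean levels ran most like those of the 10 factors were found among the 11357 genes tested, as a description, with Pearson's r over pool means. For insm1b they were ddx1 (0.95), RPA3 (0.93) and NUTF2 (0.92), and for insm1a CDKAL1 (0.95), TLE3 (0.95) and crlf1a (0.94). For rfx6 they were stx12 (0.97), aktip (0.96) and chm (0.96), the highest values of the set. For pdx1 they were tmem230a (0.95), NSA2 (0.92) and RANBP9 (0.90), and for neurod1 brk1 (0.94), stub1 (0.91) and atp5ia (0.90). For pax6b they were ehmt1a (0.92), stat1a (0.92) and gria4a (0.92), and for isl1 cyb561 (0.91), tmem63c (0.88) and rprmb (0.88). The closest of mnx1 were ENSDARG00000090901 (0.92), IQSEC1 (0.89) and GPR12 (0.89), those of nkx6.1 ENSDARG00000097441 (0.92), NHLRC2 (0.92) and ENSDARG00000098613 (0.91), and those of nkx2.2a atp6v0e1 (0.86), PSMB9 (0.86) and ptger3 (0.84). Each is the largest of very many correlations over few pools, which share depth and batch, and no other of the 10 factors was among them.

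Beyond the set, other regulators of islet and pancreas were taken from a list of 59 symbols, of which 36 matched a gene and 16 passed the filter. Of these 16, 5 fell and none rose in the pools of 3 mpf or older, against 41.1% lower and 0.194% higher over all genes, with a median difference of -0.37 beside -0.44 for all genes. The widest were bhlhe41, a circadian repressor (-2.66 ± 0.56, SE; limma adjusted p = 0.00175), and the forkhead genes foxa2 (-2.34 ± 0.37) and foxa3 (-1.95 ± 0.66), of which Foxa2 is known in mouse to act on Pdx1. Of a list of 30 known targets and products of the factors, 24 matched and 22 were tested, which include neurod1 and pax6b themselves. Of these, 4 fell and 1, ins, rose by 0.37 ± 0.10 (SE; limma adjusted p = 0.00752), against the same 41.1% and 0.194% over all genes, with a median over the list of -0.38 beside -0.44. The widest falls were those of rab3da, of granule traffic (-2.04 ± 0.66), scg2b, a granin of the granule core (-1.94 ± 0.57), and slc30a5, a zinc transporter (-1.93 ± 0.33). None of either list was called between 9 to 14 mpf and 3 to 6 mpf in the limma fit.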

How the data were processed

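Per the submitters' processing notes, reads were trimmed with Trim Galore, aligned with HISAT2 to GRCz10 and counted with HTSeq. The authors deposited whole-number counts for the 7 training pools and TPM for all cells, after their own quality control; versions and annotation release are not given in the sources used here. The tables held 1014 of 1324 labelled cells. Gene lengths recovered from counts and TPM gave back the reads of the other cohorts within a tolerance of 0.02, and were used for thinning and depth. Pools were matched to tables by column names, and the 1.5 mpf, C1 and new 4 mpf tables, whose column names do not carry the age, only by the table's title and its number of cells, so results were also computed without these 3 pools.

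Pool means of log2(TPM + 1), a pseudocount of 1, were compared with limma (trend) in a model of 3 age classes, for genes with a read in at least 5% of cells, and summed counts with edgeR's quasi-likelihood test, with DESeq2 as the alternative, Benjamini-Hochberg adjusted at 0.05. The scripts were tested on simulated data. Median reads per cell ran from 274025.5 to 1162067. The 95% intervals of shares are exact (Clopper-Pearson) and hold only for counting error. Symbols came from the study's own gene tables or, for other IDs, from a table of names, some in human style. The named genes are the 10 factors, up to 3 called genes of each further list with the widest change (ins was named after its value was seen), and the 3 genes most like each factor. The factors and lists were chosen with earlier results of these data known. No sequences or coordinates are given, since no genome of this build was used here.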

Additional observations from a re-analysis of the deposited data

Results flagged for a closer look

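In 2 of the 20 sets of 5 pools examined for a pool far from the other 4, the 3 mpf pool from the C1 chip stood apart. Its gap to the nearest pool was 0.85 of the range of the 5 pools for neurod1 and 0.75 for rfx6. Chance would set apart about 1 in 20 if the pools varied alike, which was not tested. Both cases rest on the same 13 cells, and the sets share pools, so they are not independent and these numbers are no test. Its mean log2(TPM + 1) was 3.79 for neurod1, against 6.27 to 6.69 in the other 4 pools of 3 to 6 mpf, and 0.26 for rfx6, against 1.40 to 1.79. The 4 genes pdx1, mnx1, neurod1 and isl1 moved in opposite directions in the 2 comparisons made within a collection. On the log2(TPM + 1) scale, the 12 mpf minus 1 mpf cells of 1 collection date gave 0.38 for pdx1, 0.20 for mnx1, 0.18 for neurod1 and 1.05 for isl1, and the 13 mpf minus 1 mpf cells of a shared plate gave -1.84, -0.76, -1.50 and -0.52 for the same genes. With 1 pool per age in each, the difference between the 2 comparisons was not tested.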

How the results depend on the processing

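Of the 10 genes' differences under settings other than a left-out pool, 265 kept direction and side of the threshold, 23 changed sign, 6 passed the threshold newly, 4 no longer passed, and 2 shares moved by more than the spread between pools. All sign changes were of differences that were not called, and their cause was not tested. Between 3 mpf or older and 1 to 1.5 mpf, 41.3% of genes were called, and 0.220% with the log2 of the pool's mean TPM, where mnx1 (0.17), nkx2.2a (0.21) and isl1 (0.030) turned positive; leaving out pools gave 15.08% to 52.3%, the lowest without the new 1 mpf batch and 17.1% without the 1 mpf pool. Without ins, pdx1 (0.021) and isl1 (0.15) turned; isl1 also did with only tables whose columns carry the age (0.44) and with only training pools and the 1 and 13 mpf plate (0.42), and ran from -0.30 to 0.052 with pools left out. Between 9 to 14 and 3 to 6 mpf, pdx1 was -0.20 with the mean TPM, -0.45 and -0.82 in those 2 subsets and -0.21 with batches of 3 and 6 mpf apart; nkx6.1 was -0.017, -0.13 and -0.10 in the last 3, isl1 -0.26 and -0.30, insm1a 0.15 and 0.19 and neurod1 -0.0023 in the subsets, and rfx6 0.24 with the mean TPM and 0.027 with thinned cells. Leaving out pools there gave -0.40 to 0.39 for pdx1, -0.12 to 0.11 for nkx6.1, -0.36 to 0.067 for rfx6 and -0.093 to 0.73 for mnx1. For 10 to 14 against 3 to 6 mpf in edgeR it gave -0.54 to 0.67 for nkx6.1, -0.88 to 0.32 for nkx2.2a, -0.34 to 0.14 for isl1, -0.48 to 0.18 for pdx1 and -0.57 to 0.15 for rfx6. For the trend it gave -0.33 to 0.28 for nkx2.2a, -0.16 to 0.27 for isl1, -0.15 to 0.055 for insm1b, -0.10 to 0.081 for rfx6 and 0% to 0.00627% of genes called, with 1 gene without the 10 mpf pool; with batches apart nkx2.2a was -0.0040 and rfx6 0.011. DESeq2 called 0.269% of genes in the edgeR comparison and 1.04% in the trend, and edgeR without a filter called 0.0392% in the trend, against none in both with the filter. No paired analysis was possible because the replicate numbers in the titles count cells within a pool. With the 1 and 12 mpf pools of a date and the 1 and 13 mpf pools of a plate as blocks, limma was fitted again after the data were seen. It called 40.8% and 0% of genes in the 2 comparisons, and the calls of the 10 genes were the same. The estimated correlation within a block was -0.03, so this fit was close to the one without blocks. It cannot show whether shared batches affect the calls, and other shared batches were not modelled. The comparison with 1 to 1.5 mpf rests on 3 young pools.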
